A study of Homo sapiens with 14 samples.

Results

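The enzymes that build cholesterol and fatty acids were examined in 7 established human T-cell acute lymphoblastic leukemia (T-ALL) lines treated with AS605240. The set was a list of 38 genes given by name, 19 of sterol synthesis from acetyl-CoA to cholesterol, 17 of fatty acid supply, synthesis, elongation, desaturation and activation, and 2 beside the sterol pathway (AACS and STARD4). Of these, 33 were measured among 19775 genes tested, each by the brightest of the probe sets annotated to that gene alone: 17 of sterol synthesis, 14 of fatty acid synthesis and both side genes. CYP51A1, ELOVL1 and FADS1 had only probe sets annotated to several genes, and FDFT1 and ACSL3 were not named in the annotation used, so these 5 genes have no value here.

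The data comprise 14 HG-U133 Plus 2.0 arrays, a pair for each of Jurkat, ALL-SIL, TALL-1, P12-ICHIKAWA, Molt-4, HPB-ALL and CCRF-CEM. AS605240, a small molecule inhibitor of PI3K, was given for 6 h to 1 culture of each line at the IC50 concentration of that line, and the matched Control culture received vehicle. The concentration was thus set per line, and differences between lines given unequal concentrations cannot be told apart from differences in dose. By the IC50 values listed in the study, Jurkat, ALL-SIL and HPB-ALL were given nearly the same concentration. The lines are long-term cultures, all kept in medium with fetal bovine serum, which is itself a source of lipids, and n = 7 counts lines with 1 array for each treatment. RNA was pooled from whole cultures, in which fewer cells of a type and less RNA per cell cannot be told apart.

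Cells make cholesterol from acetyl-CoA through mevalonate, farnesyl pyrophosphate, squalene and lanosterol, and they make palmitate from acetyl-CoA through malonyl-CoA, after which chains can be lengthened, desaturated and joined to coenzyme A. Many genes of both pathways are targets of the SREBP transcription factors, which are held in the endoplasmic reticulum by INSIG proteins when sterols are plentiful and act at promoters together with the CCAAT-binding factor NF-Y. Dividing leukemia cells need both products for new membranes, and PI3K and mTORC1 signaling is a known activator of SREBP.

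P12-ICHIKAWA and TALL-1 were nearly the same on these arrays. Over all genes their Control levels correlated at r = 0.9938, while the other 20 pairs of lines lay between 0.9075 and 0.9526, so results are also given with both counted as 1 line. All 13 T-cell markers measured exceeded a signal of 50 on at least 1 array, and their summed signal ranged from 8006 to 23990 with vehicle and from 7443 to 23020 with AS605240. The summed signal was at most 438.5 with vehicle and 512.1 with AS605240 for 6 B-cell markers, of which MS4A1, CD22 and PAX5 stayed under 50 on every array. CD79A exceeded 50 on 12 of 14 arrays, with a signal of up to 386.1, CD79B on 5 and BLK on 4. Of the T-cell markers CD3G was lower (log2 change -0.26, limma adjusted p = 0.00682), and of the B-cell markers CD79B was lower (-0.58, limma adjusted p = 0.00138), both in 7 of 7 lines, and their part in the results below was not tested. The summed signal was at most 278.0 and 263.9 for 5 myeloid markers, of which CD14, CSF1R, ITGAM and MPO stayed under 50. It was at most 848.3 and 735.5 for 7 epithelial and fibroblast markers, of which EPCAM, KRT18, CDH1, COL1A2 and DCN stayed under 50. The myeloid marker LYZ, the epithelial marker KRT8 and the fibroblast marker COL1A1 exceeded 50 on all 14 arrays.

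The promoters of 5 members are shown because these genes moved together and their known regulators bind close to the start site. They are the 4 sterol genes and the 1 other gene with the smallest p of those with a promoter in the RefSeq table (GRCh38.p14), which held 34 of the 38 members and lacked FASN, SQLE, FDFT1 and ACAT2. Each run is the 250 bases before an annotated start site, 5' to 3' on the strand of the gene, and capitals mark CCAAT or its reverse complement ATTGG. IDI1 isomerizes isopentenyl pyrophosphate (chr10:1048887-1049136, minus strand), DHCR7 reduces 7-dehydrocholesterol to cholesterol (chr11:71448394-71448643, minus strand), MSMO1 is the sterol C4-methyl oxidase (chr4:165327419-165327668, plus strand), LSS closes the rings of lanosterol (chr21:46228775-46229024, minus strand) and ELOVL6 elongates palmitate (chr4:110198616-110198865, minus strand). Of several annotated starts, that with the most CCAAT letters was taken.
IDI1: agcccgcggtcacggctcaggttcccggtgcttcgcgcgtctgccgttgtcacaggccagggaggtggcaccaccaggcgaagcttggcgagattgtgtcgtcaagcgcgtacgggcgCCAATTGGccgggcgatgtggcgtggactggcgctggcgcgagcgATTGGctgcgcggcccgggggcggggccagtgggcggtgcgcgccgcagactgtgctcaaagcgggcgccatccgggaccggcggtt
DHCR7: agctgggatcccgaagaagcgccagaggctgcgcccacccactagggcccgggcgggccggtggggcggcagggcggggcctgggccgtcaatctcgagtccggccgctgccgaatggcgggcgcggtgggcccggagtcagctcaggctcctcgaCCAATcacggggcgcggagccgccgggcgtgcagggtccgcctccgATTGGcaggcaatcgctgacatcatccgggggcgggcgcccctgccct
MSMO1: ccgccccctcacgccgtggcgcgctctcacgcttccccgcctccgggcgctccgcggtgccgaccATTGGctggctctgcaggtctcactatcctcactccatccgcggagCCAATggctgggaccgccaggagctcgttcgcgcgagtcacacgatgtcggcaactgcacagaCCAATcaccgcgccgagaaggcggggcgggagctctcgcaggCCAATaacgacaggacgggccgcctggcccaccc
LSS: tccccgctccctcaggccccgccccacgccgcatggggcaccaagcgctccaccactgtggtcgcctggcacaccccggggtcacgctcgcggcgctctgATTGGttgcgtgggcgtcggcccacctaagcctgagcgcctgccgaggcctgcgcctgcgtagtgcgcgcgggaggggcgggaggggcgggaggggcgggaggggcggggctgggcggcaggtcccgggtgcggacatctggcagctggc
ELOVL6: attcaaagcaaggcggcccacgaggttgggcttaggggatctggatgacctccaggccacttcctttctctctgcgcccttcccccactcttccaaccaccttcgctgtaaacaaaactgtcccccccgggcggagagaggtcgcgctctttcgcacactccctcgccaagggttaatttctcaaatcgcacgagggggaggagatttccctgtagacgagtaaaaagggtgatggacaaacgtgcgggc

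Among the 5 promoters, MSMO1 held 4 CCAAT boxes, with first bases at -139, -76 and -34 on the strand of the gene and at -185 in reverse, counted back from the start site. IDI1 held 3 (-132 forward, -129 and -87 in reverse, the first and second overlapping), DHCR7 held 2 (-94 forward and -48 in reverse), LSS held 1 (-150 in reverse) and ELOVL6 none. Over windows from 250 bases before to 50 bases after a start, on both strands, CCAAT occurred in 13 of 16 sterol members (81.2%), in 10 of 16 fatty acid members (62.5%) and in 41.7% of the 15384 genes tested on the arrays that had a promoter. It was present in 13 of the 15 measured members with a promoter that fell with AS605240 and in 9 of the 15 that did not. The GC box letters GGGCGG occurred in 14 of 16 sterol members (87.5%) and likewise in 14 of 16 fatty acid members, against 64.6% of those genes. CACGTG occurred in 2 of 16 sterol members (12.5%) and 1 of 16 fatty acid members (6.25%), against 10.9%. TCACNCCAC, the core letters of the sterol response element, were in no window of a sterol member and in 1 fatty acid member, ACSL1, against 1.43% of those genes. Only exact matches were counted, with N as any base, so a site that differs in any other letter was missed. These shares are descriptions of letters in the windows.

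Sterol synthesis genes were lower with AS605240 from the first condensations to the last reduction. Of the 17 measured, 11 were lower at an adjusted p under 0.05 (limma with the line as a block, Benjamini-Hochberg over all genes), 0 were higher and 6 did not pass, in a background where 7.03% of all genes tested were lower and 11.8% were higher. The fatty acid members split, with 6 of 14 lower, 1 higher and 7 not passing. Including STARD4, which was lower, and AACS, which was higher, 18 of 33 members were lower and 2 higher. With P12-ICHIKAWA and TALL-1 counted as 1 line, 19 were lower and 2 higher, 11 of the lower genes being of sterol synthesis. The median change was -0.37 for the sterol members and -0.13 for the fatty acid members, beside 0.01 for all genes tested, on the scale log2(signal + 16) that applies to every level and change below. A signal over 50 on fewer than 7 arrays was found in 10589 of the 19775 genes tested, 1 of the 17 sterol members and 2 of the 14 fatty acid members. The shares of all genes thus include many dim genes, whose changes are understated on this scale. Shares among genes of like level were not taken.

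In all, 7 members were lower by more than 1.5-fold, which 0.506% of all genes were. Those 7 were HMGCS1, MSMO1, DHCR7, SQLE, IDI1, FASN and SCD, and no member was higher past this fold, where 1.07% of all genes were. In total, 16 members were lower in each of the 7 lines, compared with 6.11% of all genes. Of those 16, 10 were sterol synthesis genes.

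**Figure D1:**
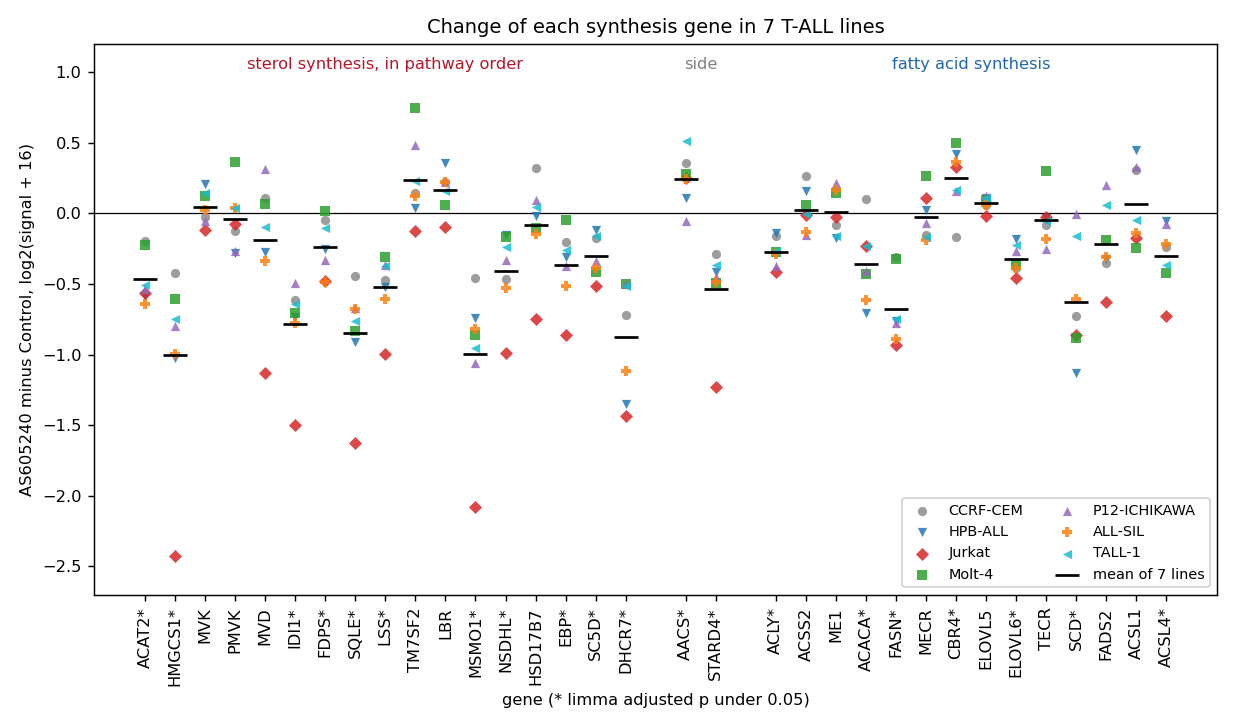
AS605240-minus-Control change in log2(signal + 16) of the 33 measured genes, ordered by pathway, with 1 point per line and a bar at the mean of 7 lines; an asterisk marks an adjusted p under 0.05. The Jurkat points lie below those of the other lines in most sterol genes, down to -2.43 in HMGCS1, and most fatty acid genes do not show this gap.

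At the entry of the sterol pathway both measured genes fell. ACAT2, the cytosolic thiolase that makes acetoacetyl-CoA, had levels of 8.93 to 10.26 with vehicle (median 9.26) and 8.42 to 9.70 with AS605240 (median 8.91). The levels of the 2 groups overlapped while each line fell, with changes of -0.64 in ALL-SIL, -0.59 in HPB-ALL, -0.56 in Jurkat, -0.54 in P12-ICHIKAWA, -0.51 in TALL-1, -0.23 in Molt-4 and -0.20 in CCRF-CEM, a mean log2 change of -0.47 (standard error 0.068, limma adjusted p = 0.000384). HMGCS1 encodes the synthase that makes HMG-CoA and had the fifth largest decrease of all genes tested. Its levels ranged from 7.99 to 10.72 with vehicle (median 8.92) and from 7.42 to 8.83 with AS605240 (median 7.89). The change was -2.43 in Jurkat, -1.03 in HPB-ALL, -0.996 in ALL-SIL, -0.80 in P12-ICHIKAWA, -0.75 in TALL-1, -0.61 in Molt-4 and -0.42 in CCRF-CEM. All 7 lines were lower, Jurkat most, and the mean decrease was 2.0-fold (log2 change -1.003, standard error 0.17, limma adjusted p = 0.00124). Without Jurkat it was -0.77 (standard error 0.084, limma adjusted p = 0.000202). A second probe set of HMGCS1 gave -1.10.

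The steps from mevalonate to farnesyl pyrophosphate did not move as 1 block. By its brightest probe set MVK, mevalonate kinase, stayed between 7.60 and 7.97 with vehicle and between 7.81 and 7.92 with AS605240. Its change was 0.04 (limma adjusted p = 0.697). Dimmer MVK probe sets gave -0.08, -0.19 and 0.02, with Jurkat at -0.49, -0.80 and 0.09. PMVK, the next kinase, was at -0.04 (limma adjusted p = 0.776). MVD, the decarboxylase that follows, was dim, with a signal over 50 on 3 of 14 arrays. It was at -1.13 in Jurkat and between -0.33 and 0.31 in the other lines, and its mean of -0.19 did not pass (adjusted p = 0.374). IDI1 fell in every line. Its level was 10.74 with vehicle in Jurkat, 10.04 in ALL-SIL and 8.57 to 9.21 in the remaining lines, and 7.93 to 9.26 with AS605240. The change was -1.50 in Jurkat, -0.77 in ALL-SIL, -0.74 in HPB-ALL, -0.71 in Molt-4, -0.64 in TALL-1, -0.62 in CCRF-CEM and -0.49 in P12-ICHIKAWA, a 1.72-fold mean decrease (log2 change -0.78, standard error 0.098, limma adjusted p = 0.00013). IDI1 was read from a probe set of a type that can also detect related sequences, and a second one of that type gave -0.76, while 2 dimmer probe sets gave -0.02 and -0.01. FDPS, which makes farnesyl pyrophosphate, fell by 0.24 on the log2 scale (standard error 0.073, limma adjusted p = 0.0331) and was lower in 6 of 7 lines, at 0.02 in Molt-4. Without Jurkat its change was -0.20 and did not pass (adjusted p = 0.102).

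By their brightest probe sets, the 2 measured genes of squalene epoxidation and ring closure were lower in all 7 lines. SQLE, the epoxidase and a control point of the pathway, had levels of 9.23 to 10.71 with vehicle (median 9.54) and 8.48 to 10.03 with AS605240 (median 8.87). The change was -1.63 in Jurkat, -0.91 in HPB-ALL, -0.83 in Molt-4, -0.76 in TALL-1, -0.68 in ALL-SIL, -0.67 in P12-ICHIKAWA and -0.44 in CCRF-CEM. The mean decrease was 1.80-fold (log2 change -0.85, standard error 0.11, limma adjusted p = 0.000146), and the other 3 probe sets of SQLE gave -0.81, -0.83 and -0.41. LSS, lanosterol synthase, was 8.01 to 10.06 with vehicle and 7.48 to 9.06 with AS605240. It was at -0.99 in Jurkat, -0.61 in ALL-SIL, -0.52 in HPB-ALL, -0.47 in CCRF-CEM, -0.37 in TALL-1, -0.36 in P12-ICHIKAWA and -0.31 in Molt-4 (log2 change -0.52, standard error 0.078, limma adjusted p = 0.000442). Its 2 dimmer probe sets gave -0.24 and -0.08 and were lower in 4 and 5 of 7 lines.

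**Figure D2:**
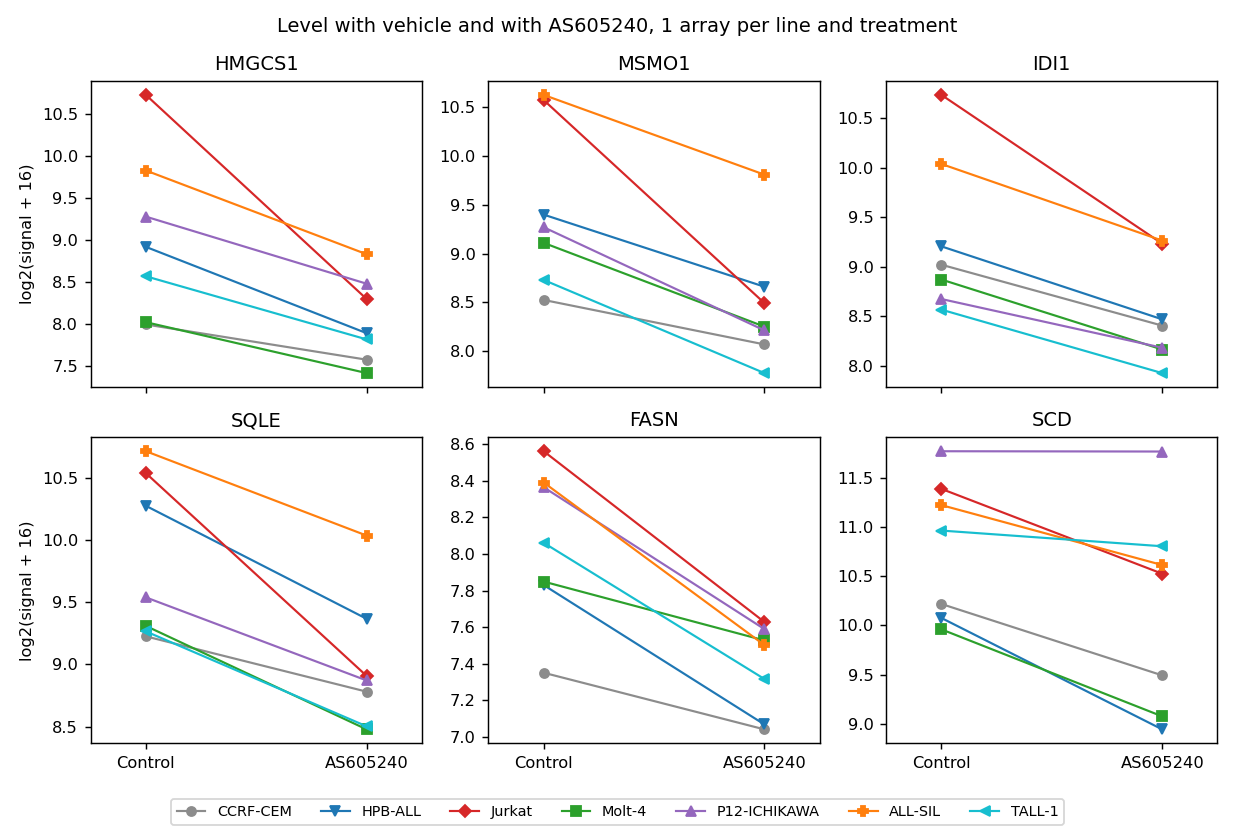
Levels in log2(signal + 16) with vehicle and with AS605240 for HMGCS1, MSMO1, IDI1, SQLE, FASN and SCD, 1 array per point, with a line joining the arrays of each cell line. In the sterol genes Jurkat is at or near the top with vehicle and within the range of the other lines with AS605240. SCD in P12-ICHIKAWA is at 11.77 on both arrays.

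Between lanosterol and cholesterol 5 of 8 measured genes fell. MSMO1 had levels of 10.62 in ALL-SIL and 10.57 in Jurkat with vehicle, and 8.53 to 9.40 in the other lines. With AS605240, ALL-SIL was still highest at 9.81 and Jurkat was at 8.49, inside the 7.78 to 8.66 of the remaining lines. The change was -2.08 in Jurkat, -1.06 in P12-ICHIKAWA, -0.95 in TALL-1, -0.86 in Molt-4, -0.82 in ALL-SIL, -0.74 in HPB-ALL and -0.46 in CCRF-CEM, a mean decrease of 1.99-fold (log2 change -0.99, standard error 0.14, limma adjusted p = 0.000289).

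DHCR7, the last reductase of the Kandutsch-Russell branch, had levels of 6.90 to 9.16 with vehicle and 5.55 to 7.73 with AS605240. All 7 lines were lower, at -1.43 in Jurkat, -1.35 in HPB-ALL, -1.12 in ALL-SIL, -0.72 in CCRF-CEM, -0.51 in TALL-1 and -0.50 in both Molt-4 and P12-ICHIKAWA. Jurkat and HPB-ALL were thus close together in this gene, and the mean decrease was 1.84-fold (log2 change -0.88, standard error 0.12, limma adjusted p = 0.000195). The second DHCR7 probe set gave -0.88 as well.

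NSDHL, a C4-decarboxylating dehydrogenase, fell by 0.41 (standard error 0.090, limma adjusted p = 0.00561), and its second probe set gave -0.40. EBP, which moves the ring double bond, fell by 0.37 (standard error 0.083, limma adjusted p = 0.00693), with 2 other probe sets at -0.39 and -0.36 and a dim one at 0.03. SC5D, the lathosterol desaturase, had levels of 7.16 to 8.48 with vehicle and 6.74 to 7.96 with AS605240 and fell by 0.30 (standard error 0.064, limma adjusted p = 0.00445). SC5D was at -0.51 in Jurkat, -0.41 in Molt-4, -0.39 in ALL-SIL, -0.34 in P12-ICHIKAWA, -0.17 in CCRF-CEM, -0.16 in TALL-1 and -0.12 in HPB-ALL. These 3 genes were lower in every line. For SC5D this rests on the brighter probe set: the other, with a mean signal of 15.18, gave 0.19, and the mean of both was -0.06 (adjusted p = 0.565).

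TM7SF2 and LBR, which both encode sterol C14-reductases, were the sterol members with the highest mean change. TM7SF2 was at 0.23 (standard error 0.090, adjusted p = 0.0886) and LBR, also a protein of the inner nuclear membrane, at 0.16 (standard error 0.063, adjusted p = 0.0906). Neither passed over 7 lines in the reported setting. Over 7 lines LBR passed as higher with quantile normalization (limma adjusted p = 0.0365), with limma's trend (0.035) and with an offset of 64 (0.0460). With a filter at a signal over 50 on at least 7 arrays, TM7SF2 and LBR both passed as higher (limma adjusted p = 0.0438 and 0.0456). Jurkat was below 0 in both, at -0.12 and -0.10, while the other 6 lines lay between 0.04 and 0.75 for TM7SF2 and between 0.06 and 0.36 for LBR, and without Jurkat both passed as higher (0.29, adjusted p = 0.0459, and 0.21, adjusted p = 0.0431). HSD17B7, the 3-keto reductase of the same steps, was at -0.08 (adjusted p = 0.663), with -0.75 in Jurkat and -0.15 to 0.32 in the other lines.

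Beside the pathway, STARD4, a carrier of cholesterol between membranes, had levels of 6.83 to 8.63 with vehicle and 6.34 to 7.78 with AS605240. It was at -1.23 in Jurkat and at -0.49 to -0.29 in the other 6 lines (log2 change -0.53, standard error 0.095, limma adjusted p = 0.00141). AACS, which activates acetoacetate for lipid synthesis in the cytosol, moved the opposite way. Its levels were 6.52 to 7.99 with vehicle and 6.93 to 8.13 with AS605240, higher in 6 of 7 lines by 0.11 in HPB-ALL up to 0.51 in TALL-1 and at -0.06 in P12-ICHIKAWA. The mean log2 change of 0.24 (standard error 0.068, limma adjusted p = 0.0230) passed in 9 of 15 alternative settings, over which its adjusted p ranged from 0.00963 to 0.0789.

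Among the genes that supply and assemble the fatty acid chain, 3 fell. ACLY, which makes cytosolic acetyl-CoA from citrate, had levels of 10.14 to 10.82 with vehicle and 9.97 to 10.54 with AS605240, a narrow range, and fell in every line, with -0.41 in Jurkat, -0.37 in P12-ICHIKAWA, -0.29 in ALL-SIL, -0.28 in Molt-4, -0.27 in TALL-1, -0.16 in CCRF-CEM and -0.14 in HPB-ALL (log2 change -0.27, standard error 0.057, limma adjusted p = 0.0039). ACACA, acetyl-CoA carboxylase, fell by 0.36 (standard error 0.085, limma adjusted p = 0.00911). The change of ACACA was -0.70 in HPB-ALL, -0.61 in ALL-SIL, -0.43 in Molt-4, -0.41 in P12-ICHIKAWA, -0.23 in both Jurkat and TALL-1 and 0.10 in CCRF-CEM, by the brighter probe set. A dimmer ACACA probe set gave -0.76 and was lower in 7 of 7 lines, with another order: -1.23 in P12-ICHIKAWA, -0.97 in both Jurkat and CCRF-CEM, and -0.35 to -0.66 in the other lines. The place of Jurkat among the lines, and the sign in CCRF-CEM, thus differed between the probe sets.

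FASN, the synthase that builds palmitate, had the smallest p of all members. Its levels were 7.35 to 8.56 with vehicle (median 8.06) and 7.04 to 7.63 with AS605240 (median 7.50). The change was -0.93 in Jurkat, -0.89 in ALL-SIL, -0.78 in P12-ICHIKAWA, -0.76 in HPB-ALL, -0.75 in TALL-1, -0.32 in Molt-4 and -0.31 in CCRF-CEM. The first 5 lines were thus close together and Molt-4 and CCRF-CEM moved less, with a mean decrease of 1.60-fold (log2 change -0.68, standard error 0.082, limma adjusted p = 0.000103). A second FASN probe set, dim at a mean signal of 10.87, gave -0.04. ACSS2 and ME1, alternative sources of acetyl-CoA and of NADPH, stayed under a signal of 50 on all 14 arrays, at changes of 0.03 and 0.01 (adjusted p = 0.844 and 0.939). Dimmer ME1 probe sets gave 0.08 and -0.11.

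In mitochondrial chain building MECR, an enoyl reductase, was at -0.03 (adjusted p = 0.857), and CBR4, a subunit of the ketoacyl reductase, was the only fatty acid member that was higher. CBR4 had levels of 7.37 to 8.64 with vehicle and 7.74 to 8.47 with AS605240. It was -0.17 in CCRF-CEM, which had its highest level with vehicle, and 0.16 to 0.50 in the other lines (log2 change 0.25, standard error 0.076, limma adjusted p = 0.0330). Its other 2 probe sets gave 0.07 and 0.01, and the call passed in 7 of 15 alternative settings (adjusted p from 0.00571 to 0.216).

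Elongation genes differed by member. ELOVL6 had levels of 8.95 in HPB-ALL and 8.44 in ALL-SIL with vehicle and 7.09 to 7.57 in the other lines, and that order was kept with AS605240 at 8.77, 8.06 and 6.73 to 7.31. All 7 lines fell, with -0.45 in Jurkat, -0.39 in CCRF-CEM, -0.38 in ALL-SIL, -0.36 in Molt-4, -0.26 in P12-ICHIKAWA, -0.22 in TALL-1 and -0.18 in HPB-ALL (log2 change -0.32, standard error 0.057, limma adjusted p = 0.00139), and the spread of the change between lines was small (SD 0.10). Its 2 dimmer probe sets gave -0.14 and -0.07, with P12-ICHIKAWA higher at 0.20 and 0.30 and Molt-4 at 0.03 in the second, and the mean of all 3 was -0.18 (limma adjusted p = 0.0363). ELOVL5, which elongates polyunsaturated chains, was at 0.08 (adjusted p = 0.388) by a bright probe set with changes of -0.02 to 0.12. A dim ELOVL5 probe set with a mean signal of 62.0 gave 0.65, higher in 7 of 7 lines, and the remaining ones gave 0.06 and -0.07. TECR, the enoyl reductase of elongation, was at -0.05 (adjusted p = 0.717), with a dim second probe set at 0.06.

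By their brightest probe sets, the desaturase genes SCD and FADS2 showed a split between lines. SCD, which makes oleate and palmitoleate, had levels with vehicle of 11.77 in P12-ICHIKAWA, 11.39 in Jurkat, 11.22 in ALL-SIL, 10.96 in TALL-1, 10.22 in CCRF-CEM, 10.08 in HPB-ALL and 9.96 in Molt-4. The change was -1.13 in HPB-ALL, -0.88 in Molt-4, -0.86 in Jurkat, -0.72 in CCRF-CEM and -0.61 in ALL-SIL, and -0.16 in TALL-1 and -0.0030 in P12-ICHIKAWA. The 2 near-identical lines were thus the weakest by the brightest probe set, and the mean was 1.54-fold lower (log2 change -0.62, standard error 0.11, limma adjusted p = 0.00175). The other 3 SCD probe sets were lower in all 7 lines, with -0.67, -0.75 and -0.74 in P12-ICHIKAWA and -0.39, -0.58 and -0.24 in TALL-1, and their means over the lines were -0.89, -0.88 and -0.76. In the second of these Molt-4 was weakest at -0.51, and TALL-1 was weakest in the others, so the flat value of P12-ICHIKAWA belonged to 1 of 4 probe sets. FADS2, the delta-6 desaturase, was at -0.22 and did not pass (standard error 0.087, adjusted p = 0.0995). It was 0.20 in P12-ICHIKAWA and 0.06 in TALL-1 and -0.19 to -0.63 in the other 5 lines. With those 2 counted as 1 line it passed at -0.28 (adjusted p = 0.0399). The second FADS2 probe set, with a mean signal of 23.11, gave -0.05 and had P12-ICHIKAWA lowest at -0.25 and HPB-ALL highest at 0.20.

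Acyl-CoA synthetases also differed. ACSL4, which activates polyunsaturated fatty acids, fell in 7 of 7 lines, with -0.72 in Jurkat, -0.42 in Molt-4, -0.36 in TALL-1, -0.24 in CCRF-CEM, -0.22 in ALL-SIL, -0.08 in P12-ICHIKAWA and -0.05 in HPB-ALL (log2 change -0.30, standard error 0.078, limma adjusted p = 0.0150). Its 2 dim probe sets gave -0.09, lower in 5 of 7 lines, and -0.20, lower in 7 of 7, and the mean of all 3 was -0.20 (limma adjusted p = 0.0314). ACSL1 was at 0.07 (adjusted p = 0.685) and was the member that differed most between lines. With vehicle its level was 8.23 in HPB-ALL, 7.63 in ALL-SIL, 7.38 in Jurkat and 7.04 in Molt-4, but 4.32 in TALL-1, 4.18 in P12-ICHIKAWA and 4.17 in CCRF-CEM, where its signal did not exceed 4.02.

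**Figure D3:**
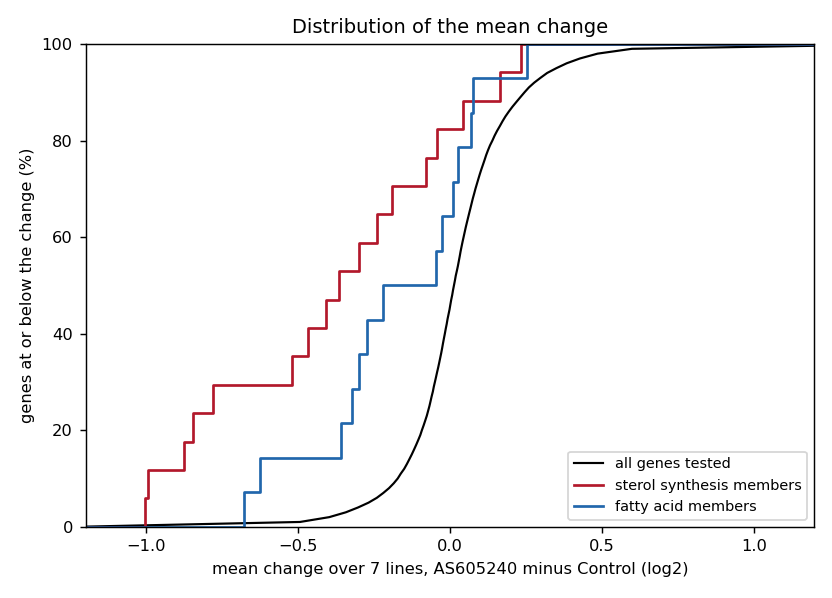
Cumulative share of genes, in percent, by mean log2 change over 7 lines for the 17 sterol members, the 14 fatty acid members and all 19775 genes tested. The sterol curve lies to the left of the all-gene curve over most of its course, with a median of -0.37 against 0.01. The fatty acid curve, with a median of -0.13, lies between them over most of its course and crosses the sterol curve above 0.

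Jurkat had the deepest change in most sterol genes. The comparison is a description, since Jurkat was singled out with its values known and has 1 array for each treatment. Its change was the lowest of the 7 lines in 14 of 17 sterol members (82.4%), in 6 of 14 fatty acid members and in 13.5% of all genes tested. The sterol genes in which another line was lower were ACAT2 and FDPS, where ALL-SIL was lowest, and PMVK, where HPB-ALL was. The median sterol change was -0.86 in Jurkat, -0.51 in ALL-SIL, -0.34 in P12-ICHIKAWA, -0.28 in HPB-ALL, -0.24 in TALL-1, -0.20 in CCRF-CEM and -0.17 in Molt-4. For the fatty acid members it was -0.20 in Jurkat and -0.07 to -0.22 in the other lines, so by this median Jurkat did not stand apart there. By count, Jurkat was lowest in 42.9% of the fatty acid members, above the 13.5% of all genes, and HPB-ALL came next with 3 members. By the brightest probe sets, on which these counts rest, Jurkat was lowest in FASN, ACLY, ELOVL6 and ACSL4, while HPB-ALL was lowest in ACACA and SCD. In the other ACLY probe sets P12-ICHIKAWA was lowest (-0.54 and -0.58, with Jurkat at -0.30 and -0.39). Molt-4 was lowest in the other ACSL4 probe sets (-0.36 and -0.49). For ELOVL6 the dimmer probe sets had Jurkat (-0.41) and TALL-1 (-0.39) lowest. HPB-ALL was lowest in every SCD probe set. Per sterol gene, the median difference between Jurkat and the median of the other lines was -0.58, and the widest gaps were -1.65 in HMGCS1, -1.24 in MSMO1 and -1.12 in MVD.

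**Figure D4:**
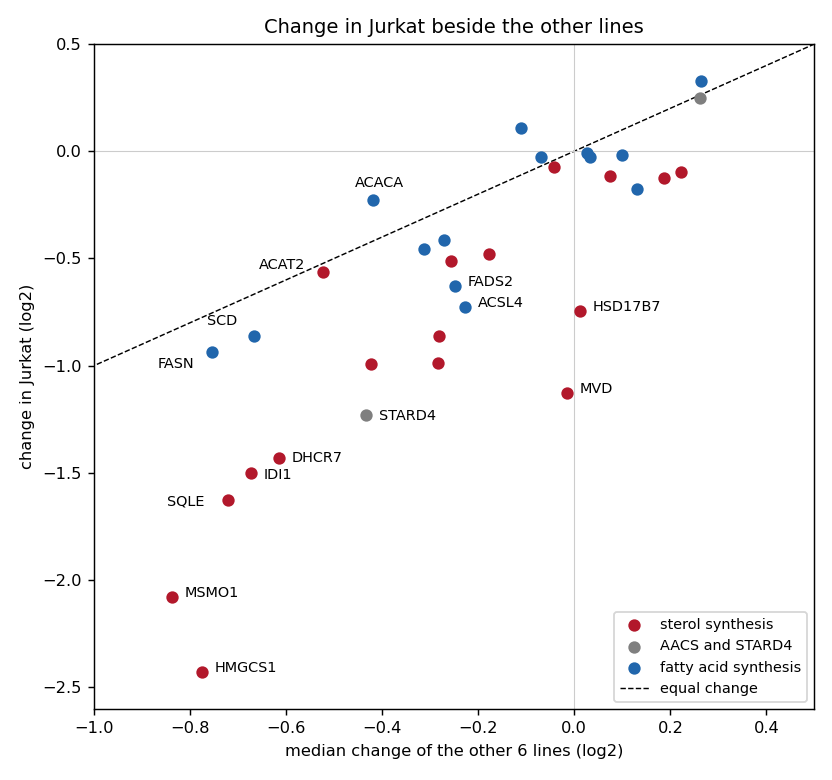
Change in Jurkat (vertical axis, log2) against the median change of the other 6 lines (horizontal axis, log2), 1 point per member, with the dashed line at equal change. Most sterol genes lie under the line, with HMGCS1 at -2.43 against -0.77, while FASN and SCD lie close to it.

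Jurkat also held the highest levels of most sterol genes in the Control cultures. With vehicle it was highest in 14 of 17 sterol members, where 16.3% of all genes had Jurkat highest, with MSMO1 and SQLE highest in ALL-SIL and LBR highest in P12-ICHIKAWA. In 11 of those 14 its change was the lowest as well, compared with 20.9% of all genes in which Jurkat was highest with vehicle. Both counts use the same Jurkat Control array, so a high value on it raises the level and deepens the change together. With AS605240, Jurkat was highest in 8 of 17. Levels of the lines drew closer in the sterol branch, where the SD between lines was smaller with AS605240 than with vehicle in 14 of 17 members, as against 43.7% of all genes and 5 of 14 fatty acid members. For HMGCS1 this SD went from 0.99 to 0.51. These SDs include Jurkat, so a high value on its Control array also widens the spread with vehicle. The spread without Jurkat was not computed.

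Most sterol calls also passed without Jurkat. Fitted over the other 6 lines, 10 of 17 sterol members were lower and 2 higher (in that fit 5.61% of all genes were lower and 10.4% higher, so the share of higher members was near that of all genes), with a median change of -0.28, and IDI1, SQLE and MSMO1 were at -0.66, -0.72 and -0.81. Of the 11 sterol genes called over 7 lines, FDPS was the one that did not pass. In the fatty acid branch 6 of 14 were lower without Jurkat and 0 higher.

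Other enzymes of these steps, taken as a list of 25 of which 20 were measured, moved less. In this list 3 were lower, 2 higher and 15 did not pass, with a median change of -0.0049, which is 15.0% lower and 10.0% higher beside 7.03% and 11.8% of all genes tested. The share of higher genes was thus near the background. HSD17B12, the ketoacyl reductase of elongation, was at -0.31 (limma adjusted p = 0.00557), the mitochondrial thiolase ACAT1 at -0.25 (adjusted p = 0.0284) and the mitochondrial malic enzyme ME2 at -0.25 (adjusted p = 0.00715). ACSS1, a mitochondrial acetyl-CoA synthetase, was higher at 0.37 (adjusted p = 0.000991), and GGPS1, which draws farnesyl pyrophosphate toward geranylgeranyl pyrophosphate, was higher at 0.27 (adjusted p = 0.0187). In GGPS1 Jurkat had the largest increase, 0.67 against 0.02 to 0.38 in the other lines.

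Of 18 listed genes of SREBP control and cholesterol traffic 15 were measured, and 1 was lower (6.67%, near the 7.03% of all genes tested) and 4 were higher (26.7%, beside 11.8%). The lower gene was FABP5, a fatty acid carrier, at -0.38 in 7 of 7 lines (limma adjusted p = 0.000451). The higher genes were NR1H3, the liver X receptor alpha (0.55, adjusted p = 0.000431, 7 of 7 lines), NPC1 (0.35, adjusted p = 0.0120) and NPC2 (0.18, adjusted p = 0.0351), which move cholesterol out of lysosomes, and ABCG1, a cholesterol exporter (0.28, adjusted p = 0.0233). The regulators themselves did not pass. SREBF2, the SREBP with most control over sterol genes, was at -0.23 (adjusted p = 0.0579) with -0.60 in Jurkat, and SREBF1 at 0.23 (adjusted p = 0.240) with -0.31 in Jurkat against a median of 0.22 in the others. INSIG1, a target and brake of SREBP, was at -0.27 (adjusted p = 0.0877), with -1.03 in Jurkat against a median of -0.19 in the others. Jurkat was the lowest line in SREBF2, SREBF1 and INSIG1, but not in the other SREBP regulators measured. Over the whole list it was lowest in 6 of 15 genes (40.0%), beside 13.5% of all genes tested, NPC1, NPC2 and NR1H3 being the others. NPC1 was at -0.08 in Jurkat and between 0.21 and 0.83 in the other lines. INSIG2, SCAP, MBTPS1 and MBTPS2 did not pass either, with Jurkat at 0.18, 0.06, 0.05 and 0.02.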

How the data were processed

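Total RNA of 7 T-ALL lines, each with AS605240 or vehicle for 6 h, was hybridized to 14 HG-U133 Plus 2.0 arrays. The authors deposited linear signal intensities, which by the methods of the paper come from iterPLIER; the submitters' processing notes name PLIER and Affymetrix Expression Console 1.3.1.187. The array normalization that preceded it was not given in the sources used here. As in the study, 16 was added and log2 taken, so that the changes of dim genes are understated.

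Of 54675 probe sets, 41091 were annotated to 1 gene, 1801 to several and 11721 to none, besides 62 controls. Symbols were updated through gene IDs for 41043, and each of 19775 genes was represented by the brightest of its own probe sets by mean log2 value. AS605240 was compared with Control in R 4.3.3 with limma 3.58.1 (lmFit, eBayes, two-sided), with the line as a block because both arrays of a pair came from the same line, as in the paired analysis of the study. Calls needed a Benjamini-Hochberg adjusted p under 0.05 over all genes, and a fold over 1.5 where stated. The p-values weigh the mean change against the spread between lines, which includes array noise, and precision is limited by how few arrays there are. The code was tested on simulated data.

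The 38 members and the lists of other enzymes, regulators and marker genes were chosen with earlier results of these data known. All members were named, with values per line for the 8 sterol and 6 fatty acid genes of smallest p. Members called against their branch have the range over the lines, and those whose probe sets differed in sign have the mean of each probe set. From the other lists the genes called were named, at most 6 per list. SREBF1, SREBF2, INSIG1, INSIG2, SCAP, MBTPS1 and MBTPS2 were named after their values were seen. Marker genes were also named by whether their signal exceeded 50. Alternatives were an offset of 4 or 64, quantile normalization, median centring of each array, the mean of all probe sets of a gene, a filter at a signal over 50 on at least 7 arrays, limma's trend, no replicate block, each line left out, and P12-ICHIKAWA and TALL-1 averaged.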

Additional observations from a re-analysis of the deposited data

Results flagged for a closer look

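Over the 7 lines, 99 sets of values (level with vehicle, level with AS605240 and change, for 33 members) were examined for a single line far from the rest, with Dixon's ratio of the gap to the range above the critical value for 7 values. In independent sets not chosen by their values, chance gives such a line in about 1 in 20, and 9 were found, 7 of them in Jurkat. Here Jurkat and the members were chosen with results known, and each change is made from the levels examined beside it. The count is therefore a description and cannot be weighed against that rate. The change in Jurkat was -2.427 for HMGCS1 (next lowest line -1.026), -2.08 for MSMO1 (next -1.056), -1.629 for SQLE (next -0.9075), -1.503 for IDI1 (next -0.7737) and -1.229 for STARD4 (next -0.4913). The level with vehicle in Jurkat was 7.428 for MVD (next highest 6.068) and 7.878 for NSDHL (next 7.009). For these genes change and level with vehicle share the same Jurkat array.

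Outside Jurkat, the level of EBP with AS605240 was 8.055 in HPB-ALL, where the next lowest line had 8.85. TECR was at a change of 0.2975 in Molt-4, and the next highest line was at -0.02722.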

How the results depend on the processing

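The number of members lower with AS605240 stayed between 16 and 19, and the number of sterol members lower at 10 or 11, under all alternatives other than the fit without pairing. Without the replicate block, that is without pairing the arrays of a line, 0 members were lower and 0 higher, 0 of them sterol and 0 fatty acid genes, since levels differ more between lines than between treatments. The number of members higher was 2 in the reported setting, 0 with an offset of 4 and 1, LBR, with quantile normalization. It was 4 with the filter on dim genes, which added TM7SF2 and LBR, and 0 to 2 with each line left out. AACS and CBR4 thus lost their calls in several settings. The median change of the fatty acid members went from -0.13 to -0.25 with the filter, which removed dim members near 0, and to -0.081 with the mean of all probe sets. The median gap of Jurkat over the sterol members was -0.44 with the mean of all probe sets, against -0.58.

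Directions that turned all belonged to members without a call. Quantile normalization put ACSS2 at -0.0087, and centring put ME1 at -0.0076. The mean of all probe sets put MVK at -0.053, ME1 at -0.0079 and TECR at 0.0070. With each line left out in turn, ACSS2 ranged from -0.013 (without CCRF-CEM) to 0.057, HSD17B7 from -0.15 to 0.031 (without Jurkat), MECR from -0.074 to 0.0020 (without ALL-SIL) and ME1 from -0.022 (without P12-ICHIKAWA) to 0.043, with ME1 also below 0 without Molt-4 and without ALL-SIL. The cause was not tested. Of the 18 lower members, FDPS passed in 9 of 15 alternatives with pairing and SC5D and ACSL4 in 14; the other 15 passed in all. Dim probe sets (ACSS2, ME1, MVD) limit what can be seen in those genes.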
